A study of Mus musculus with 10 samples.

Results

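The 10 genes described here belong to the antioxidant response controlled by the transcription factor NRF2. They were taken by symbol from the list Nfe2l2, Keap1, Nqo1, Hmox1, Gclc, Gclm, Txnrd1, Srxn1, Osgin1 and Sod2, and the list sets no threshold on any value. All 10 are among the 18025 genes of the count table, and all 10 passed the filter on low counts, which left 12697 genes. The study profiled messenger RNA of the gastrocnemius, the large calf muscle, in C57BL/6 mice of wild type genotype, whose age the labels give as 8 weeks. The design has 5 control libraries and 5 libraries of a model of chronic obstructive pulmonary disease (COPD) that, by the series title, was produced with cigarette smoke. The labels give no smoke dose, exposure time, sex, litter or hour of collection. They also do not say whether each library came from its own animal, so every p-value below rests on variation among these libraries, part of which may be technical.

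NRF2, the product of Nfe2l2, is held in the cytoplasm by KEAP1, which presents it to a cullin-3 ubiquitin ligase for destruction. Oxidants and electrophiles, among them constituents of tobacco smoke, modify cysteines of KEAP1, and NRF2 then accumulates, pairs with a small Maf protein and binds antioxidant response elements near its target genes. The targets listed here make glutathione (Gclc, Gclm), reduce thioredoxin and peroxiredoxins (Txnrd1, Srxn1), break down heme (Hmox1), reduce quinones (Nqo1) and restrain growth under oxidative stress (Osgin1). Sod2 encodes the superoxide dismutase of the mitochondrial matrix, which is also induced by other pathways. Because NRF2 is regulated mainly through the stability of its protein, the level of Nfe2l2 messenger RNA is not a measure of its activity.

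Promoter sequence is shown for 3 genes, which were chosen after the values were seen. Srxn1 had the largest lower value in COPD, Nfe2l2 a higher one, and Osgin1 shares a Maf-type element with Srxn1. None of the 3 passed the threshold for a difference. Osgin1 had a log2 fold change of -0.05, and its interval, -0.62 to 0.53, contains the -0.55 of Srxn1. The values therefore do not tell Osgin1 apart from Srxn1, and no link between an element and a direction was tested. RefSeq windows of 300 bases (250 before and 50 after the start site, build GRCm38.p6) were available for 8 of the 10 genes, as 10 windows, of which Txnrd1 had 3. Hmox1 and Gclc had no window and were not searched. The deposited counts were made on mm9, so no value was read by these coordinates. The 250 bases before the start site are printed 5′ to 3′ in the direction of the gene. Capitals mark matches on either strand to TGACNNNGC, the core of the antioxidant response element, or to TGAGTCAGC, the core of a Maf recognition element. The latter contains TGAGTCA, a match to the AP-1 element TGANTCA.
Srxn1, chr2:152105274-152105523, plus strand: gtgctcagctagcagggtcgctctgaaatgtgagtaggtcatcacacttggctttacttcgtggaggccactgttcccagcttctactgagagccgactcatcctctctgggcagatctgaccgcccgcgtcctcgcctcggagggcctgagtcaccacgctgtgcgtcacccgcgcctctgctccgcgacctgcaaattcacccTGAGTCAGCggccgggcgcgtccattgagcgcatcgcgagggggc
Osgin1, chr8:119436897-119437146, plus strand: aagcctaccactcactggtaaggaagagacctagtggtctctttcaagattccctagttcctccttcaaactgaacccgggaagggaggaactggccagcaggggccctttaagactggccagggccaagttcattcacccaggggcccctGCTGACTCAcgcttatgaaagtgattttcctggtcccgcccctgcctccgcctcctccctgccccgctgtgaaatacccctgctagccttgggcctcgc
Nfe2l2, chr2:75704664-75704913, minus strand: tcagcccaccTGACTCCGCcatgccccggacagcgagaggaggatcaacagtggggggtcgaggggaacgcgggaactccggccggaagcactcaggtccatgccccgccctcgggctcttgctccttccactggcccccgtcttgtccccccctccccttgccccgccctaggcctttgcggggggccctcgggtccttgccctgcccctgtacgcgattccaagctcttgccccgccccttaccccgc

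TGAGTCAGC was found only in the windows of Srxn1, 45 to 37 bases before the start site, and Osgin1, 99 to 91 bases before it, among the 8 genes searched. It occurred in 0.414% of the 32841 RefSeq promoter windows of this length, and in at least 1 window of 0.481% of the 27018 genes that have one. TGACNNNGC was found in the windows of 4 of the 8 genes, namely Nfe2l2, Gclm, Srxn1 (28 to 36 bases after the start site) and 1 window of Txnrd1, and in 12.4% of all windows. TGANTCA occurred in 7.81% of all windows and in those of Srxn1 and Osgin1, and in each of these genes 1 of its matches lies inside the Maf-type element. A match of these letters is a description of the sequence. Elements outside the windows were not searched.

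Depth ran from 14085854 to 17251034 expected counts per library, and a value of 1 CPM, the count scaled to a common library total with TMM factors, stands for 13.5 to 18.1 counts. The 10 genes carried between 58 counts (Hmox1 in COPD replicate 1) and 4111 counts (Sod2 in COPD replicate 4). Marker genes of fast muscle fibres summed to between 161910 and 228660 TPM, an abundance scaled by transcript length, in each library. Slow fibre markers ran from 100 to 1357 TPM, highest in control replicates 1 (1357 TPM) and 4 (937 TPM). All 8 fast markers had a log2 fold change above 0 and all 7 slow markers one below 0. The part of fibre type in the values below was not tested. Some libraries stood apart. In a principal component analysis of log2 CPM, COPD replicate 5 scored -21.9 on the leading axis, within the controls (-23.9 to -10.04), while COPD replicates 1 to 4 scored between 11.4 and 38.0. Y-linked transcripts were present in all controls and in COPD replicates 2 and 3 (1118 to 1974 counts). They were close to 0 in COPD replicates 1, 4 and 5 (3 to 4 counts), so apparent sex was uneven between the groups. Over all 10 libraries, COPD and this imbalance cannot be fully told apart. The 8 neutrophil markers summed to 918 TPM in control replicate 1 and to 223 TPM in COPD replicate 5, against 3.99 to 42.95 TPM in the other libraries, and 5 of them, including Camp, Ngp and Ltf, were at 0 in at least 1 library. Results are given below with and without COPD replicate 5. That library was singled out by the same expression values. Leaving out the COPD library most like the controls tends by itself to widen the group difference.

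None of the 10 genes passed the test for a difference between COPD and control muscle. By the quasi-likelihood test of edgeR, with p adjusted over all genes by the Benjamini-Hochberg method, 0 of 10 had an adjusted p under 0.05, against 0.0630% of all genes tested (8 of 12697). Their log2 fold changes, COPD over control, ran from -0.55 for Srxn1 to 0.42 for Hmox1, with 5 above 0, 5 below 0 and a median of 0.07, beside a median of -0.01 over all genes tested. At an unadjusted p under 0.05, edgeR listed 1 of the 10 as higher (Nfe2l2) and 1 as lower (Srxn1), where 7.94% and 6.64% of all genes were so listed. The 2 groups overlapped for each of the 10 genes, and they did not overlap for 2.84% of all genes. At this share and at those that follow, 0 of 10 does not set these genes apart from others. DESeq2 called 3.19% of all genes and 0 of the 10. Settings that called more genes also called none of these. Without COPD replicate 5, edgeR called 3.21% of all genes and 0 of the 10. Without COPD replicate 2 instead, it called 0 genes. Over the 7 libraries with Y-linked transcripts it called 3.70% and 0 of the 10. These 7 are the 5 controls and only COPD replicates 2 and 3.

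**Figure D1:**
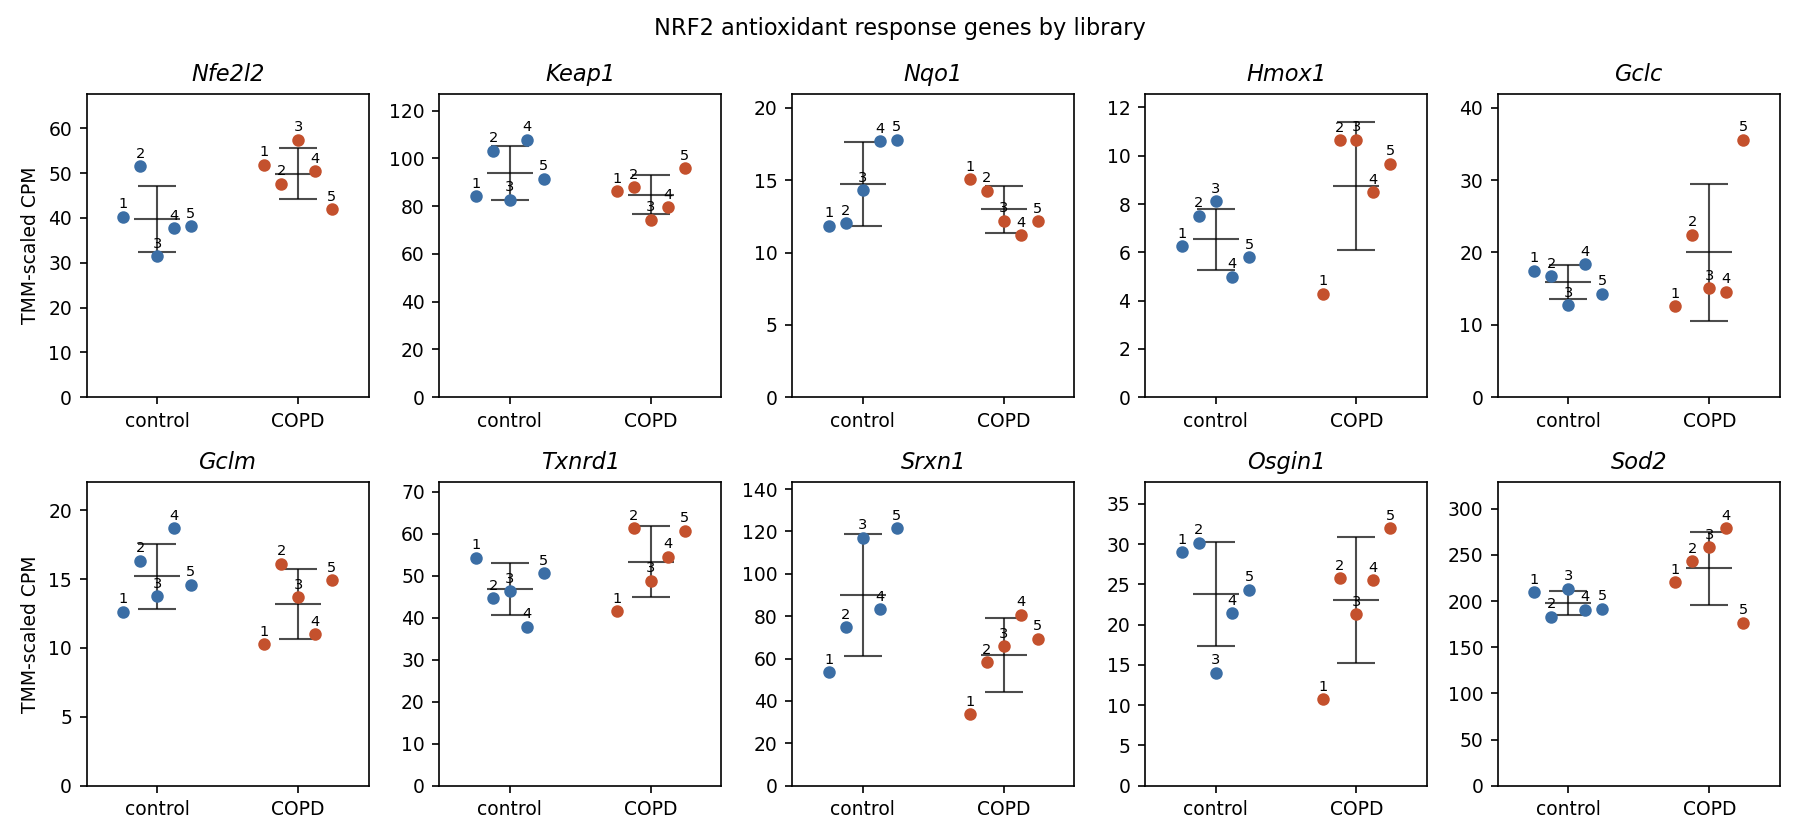
TMM-scaled CPM (vertical axes, from 0) of each of the 10 genes in the 5 control and 5 COPD libraries. Points are libraries with their replicate number and bars are mean ± SD; the groups overlap in every panel, and COPD replicate 5 is the highest point for Gclc (35.6 CPM) and the lowest for Sod2 (177 CPM).

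Nfe2l2 and Keap1, the factor and its repressor, had fold changes of opposite sign. Nfe2l2 was at 40.2, 51.5, 31.4, 37.8 and 38.1 CPM in control replicates 1 to 5 and at 51.8, 47.6, 57.4, 50.4 and 41.9 CPM in COPD replicates 1 to 5. Control replicate 2 was as high as the COPD libraries, and COPD replicate 5 was the lowest of its group. The means were 39.8 ± 7.33 and 49.8 ± 5.68 CPM (SD, n = 5 each), which gave a log2 fold change of 0.32 ± 0.13 (SE; 95% interval 0.04 to 0.61; edgeR adjusted p = 0.288). Keap1 was at 84.3, 103, 82.7, 108 and 91.5 CPM in control and at 86.3, 87.9, 74.3, 79.5 and 95.9 CPM in COPD. COPD replicates 3 and 4 lay below the control range, and no COPD library reached the 2 highest controls. The log2 fold change of Keap1 was -0.15 ± 0.11 (95% interval -0.38 to 0.09; edgeR adjusted p = 0.574), and it was -0.09 without control replicate 4 or without COPD replicate 3.

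Taken as a ratio of TPM within a library, which does not depend on how libraries are scaled, Nfe2l2 stood at 0.624, 0.649, 0.495, 0.450 and 0.555 of Keap1 in control and at 0.780, 0.707, 1.01, 0.834 and 0.571 of it in COPD. COPD replicates 1 to 4 lay above every control, and COPD replicate 5 lay among the controls. The ratio was chosen after the values were seen and is given without a test.

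Srxn1, the sulfiredoxin that restores over-oxidized peroxiredoxins, had the largest lower value of the 10 and the widest range over all libraries. It was at 53.55, 74.9, 117, 83.3 and 121 CPM in control and at 33.9, 58.2, 65.9, 80.8 and 69.4 CPM in COPD. Control replicates 3 and 5 were high and COPD replicate 1 was low, and the remaining 7 libraries lay between 53.55 and 83.3 CPM. The means were 90.1 ± 28.9 and 61.7 ± 17.5 CPM (SD, n = 5 each), with a log2 fold change of -0.55 ± 0.25 (95% interval -1.09 to -0.0035; edgeR adjusted p = 0.341). It was -0.39 without COPD replicate 1, -0.41 without control replicate 5 and -0.43 without control replicate 3.

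Txnrd1, the cytosolic thioredoxin reductase, did not share that pattern. It was at 54.3, 44.7, 46.3, 37.9 and 50.7 CPM in control and at 41.6, 61.3, 48.8, 54.55 and 60.7 CPM in COPD. COPD replicates 2, 4 and 5 lay above all controls, replicate 4 only just, and COPD replicate 1 was again low. Its log2 fold change was 0.19 ± 0.13 (95% interval -0.09 to 0.48; edgeR adjusted p = 0.542). It was 0.12 without control replicate 4 and turned to -0.01 on the log2(TPM + 1) scale, where the median of all genes was -0.18. In TPM, Srxn1 was 1.19 to 3.04 times the level of Txnrd1 in control and 0.967 to 1.78 times in COPD.

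The 2 subunits of glutamate-cysteine ligase, the rate-limiting enzyme of glutathione synthesis, differed in sign. Gclc, the catalytic subunit, was at 17.5, 16.7, 12.7, 18.4 and 14.3 CPM in control and at 12.55, 22.5, 15.1, 14.6 and 35.6 CPM in COPD. COPD replicate 5 was the highest library by a wide margin and COPD replicate 2 also exceeded the controls, while COPD replicates 1, 3 and 4 lay among or just below the controls. The log2 fold change was 0.33 ± 0.25 (95% interval -0.22 to 0.89; edgeR adjusted p = 0.590) and 0.02 without COPD replicate 5. In the same library the red blood cell markers summed to 4071 TPM, the highest of the 10 libraries (141 to 3024 TPM in the others). Their part in the Gclc value was not tested.

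Gclm, the modifier subunit that makes the ligase more efficient, was at 12.6, 16.3, 13.8, 18.7 and 14.6 CPM in control and at 10.3, 16.1, 13.7, 10.99 and 14.9 CPM in COPD. Only COPD replicates 1 and 4 lay below the control range. Its log2 fold change was -0.20 ± 0.15 (95% interval -0.53 to 0.13; edgeR adjusted p = 0.579). It was -0.12 without control replicate 4, -0.13 without COPD replicate 1 and -0.02 when only the 7 libraries with Y-linked transcripts were fitted. Within a library, Gclc was at 0.873, 0.629, 0.590, 0.630 and 0.611 of Gclm in control and at 0.797, 0.879, 0.708, 0.857 and 1.45 of it in COPD (TPM). Control replicate 1 alone among controls reached the COPD range, and COPD replicate 5 alone had more Gclc than Gclm. This ratio, too, was chosen after the values were seen.

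Hmox1, heme oxygenase 1, was the least abundant of the 10 and had the largest higher value. It was at 6.26, 7.51, 8.11, 4.99 and 5.80 CPM in control and at 4.28, 10.7, 10.7, 8.48 and 9.67 CPM in COPD. COPD replicates 2 to 5 lay above all controls, and COPD replicate 1 lay below all of them, at 58 counts. The log2 fold change of Hmox1 was 0.42 ± 0.23 (95% interval -0.07 to 0.92; edgeR adjusted p = 0.424). It was 0.60 without COPD replicate 1 (edgeR adjusted p = 0.159) and 0.72 over the libraries with Y-linked transcripts (edgeR adjusted p = 0.0749). The latter fit holds only COPD replicates 2 and 3 of the COPD group, the 2 highest libraries for Hmox1.

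Hmox1 is strongly expressed by macrophages, which recycle heme. The 10 macrophage markers summed to 106 to 185 TPM in control and to 43.4 to 141 TPM in COPD, with the lowest sums in COPD replicates 2 and 3, where Hmox1 was highest. None of the 10 markers was at 0 in any library, and 8 of the 9 tested had a log2 fold change below 0. The red blood cell markers ran from 141 to 3024 TPM in control and from 357 to 4071 TPM in COPD, with Slc4a1, Hbb-b1 and Hbb-b2 among the markers at 0 in at least 1 library. The part of these cells in the Hmox1 values was not tested. In whole muscle, fewer cells of a type and less RNA per cell cannot be told apart.

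Nqo1, the quinone reductase often used as a readout of NRF2, had a lower mean in COPD (12.98 ± 1.62 CPM) than in control (14.7 ± 2.92 CPM; SD, n = 5 each), short of the threshold. By library it was at 11.9, 12.01, 14.3, 17.7 and 17.8 CPM in control and at 15.1, 14.3, 12.2, 11.2 and 12.2 CPM in COPD. Control replicates 4 and 5 lay above all COPD libraries, and the rest were mixed. For Nqo1 the log2 fold change was -0.18 ± 0.15 (95% interval -0.50 to 0.14; edgeR adjusted p = 0.614). With a term for Y-linked transcripts the log2 fold change was -0.15 ± 0.20. It was -0.11 without control replicate 4 and also without control replicate 5.

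Osgin1, an oxidative stress-induced growth inhibitor, was at 29.0, 30.2, 14.03, 21.5 and 24.4 CPM in control and at 10.7, 25.7, 21.3, 25.5 and 32.0 CPM in COPD. Each group held 1 low library, control replicate 3 and COPD replicate 1. A log2 fold change of -0.05 ± 0.26 (95% interval -0.62 to 0.53; edgeR adjusted p = 0.954) was found, and one of 0.14 without COPD replicate 1.

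Sod2 was the most abundant of the 10 per transcript length. It was at 210, 183, 214, 191 and 192 CPM in control and at 220, 243, 259, 279 and 177 CPM in COPD. COPD replicates 1 to 4 lay above all controls and COPD replicate 5 below all of them. The means were 198 ± 13.1 and 236 ± 39.3 CPM (SD, n = 5 each), with a log2 fold change of 0.25 ± 0.12 (95% interval -0.02 to 0.52; edgeR adjusted p = 0.371). Without COPD replicate 5 it was 0.34 ± 0.10 (adjusted p = 0.0958), still short of the threshold.

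**Figure D2:**
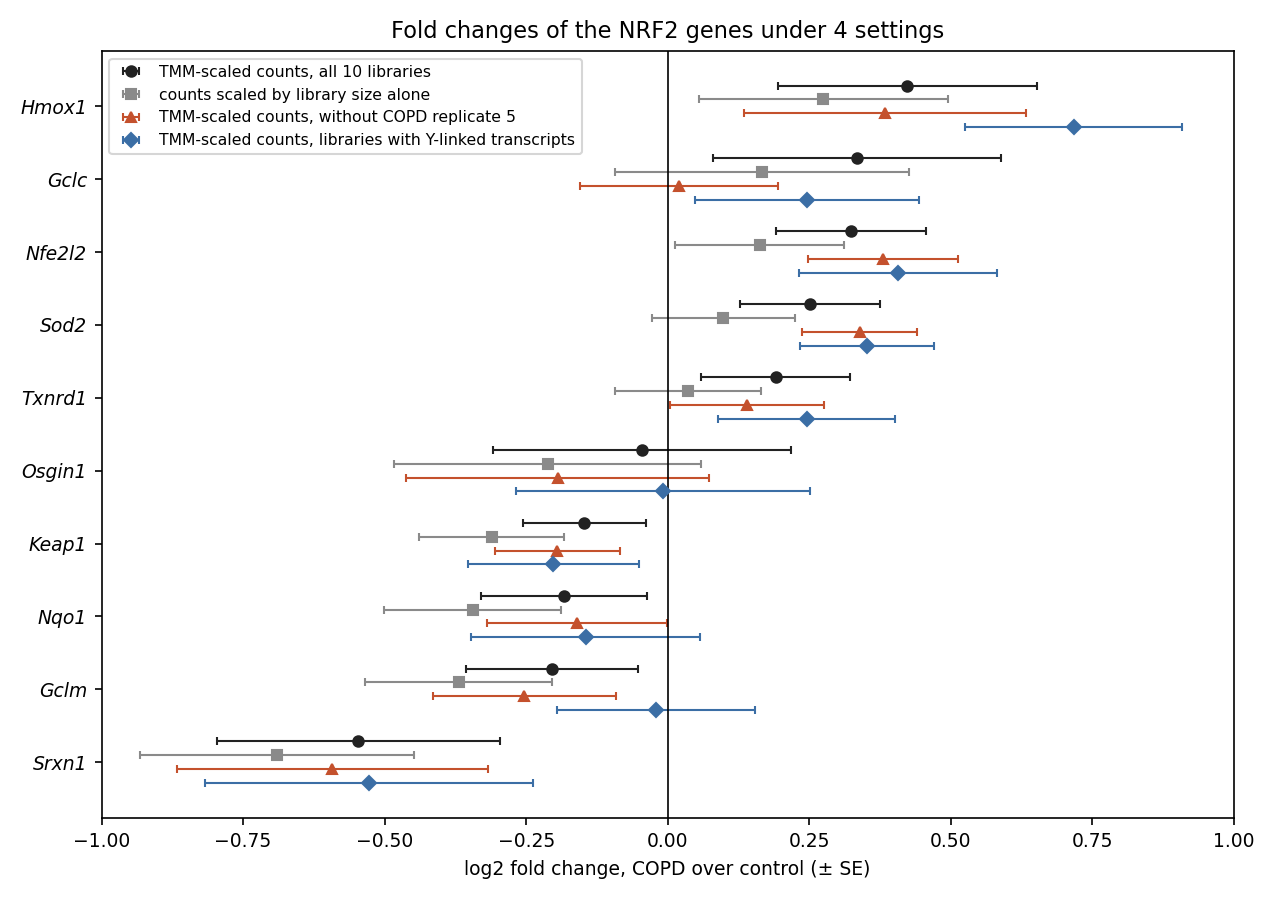
Log2 fold change (COPD over control, horizontal axis; points ± SE) of the 10 genes from edgeR under 4 settings: all 10 libraries with TMM scaling, library size alone, without COPD replicate 5, and the 7 libraries with Y-linked transcripts. Gclc moves from 0.33 to 0.02 without COPD replicate 5, and scaling by library size alone shifts all genes downwards, with the median of all genes at -0.17.

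How libraries were scaled moved all of these values together. TMM factors ran from 0.9627 to 1.1354 in control and from 0.9155 to 0.9666 in COPD. Scaled by library size alone, the median of all genes was -0.17 on the log2 scale. Relative to that median, Nfe2l2 was at 0.33, Srxn1 at -0.52, Sod2 at 0.27 and Hmox1 at 0.44, close to their values under TMM scaling. Before the median was subtracted, Nfe2l2 was at 0.16, Sod2 at 0.10 and Hmox1 at 0.28. Their unadjusted p by edgeR were 0.297, 0.452 and 0.233. Keap1, Nqo1, Gclm and Srxn1 then had unadjusted p of 0.0306, 0.0463, 0.0442 and 0.0139 for a lower value by edgeR, and 0 of the 10 passed the adjusted threshold. With limma on log2(TPM + 1), where the median of all genes was -0.18, Nfe2l2 was at 0.12, Hmox1 at 0.16, Gclc at 0.04 and Sod2 at 0.03, and Keap1, Nqo1 and Gclm were at -0.34, -0.35 and -0.39.

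Compared per transcript length, the 10 genes spanned about an order of magnitude in control muscle. Sod2 stood at 91.7 ± 4.83 TPM, above every value of the next genes, Srxn1 (56.8 ± 17.7 TPM) and Keap1 (51.7 ± 8.52 TPM), whose ranges overlapped. Keap1 lay above every value of Nfe2l2 (28.7 ± 6.38 TPM). From there, neighbouring ranges overlapped through Txnrd1 (24.7 ± 3.80 TPM), Osgin1 (21.9 ± 6.77 TPM), Nqo1 (17.2 ± 3.89 TPM) and Gclm (13.4 ± 2.50 TPM). Gclc (8.83 ± 1.61 TPM) lay below every value of Gclm, and its range overlapped that of Hmox1 (7.45 ± 1.16 TPM; SD, n = 5 for each gene). In COPD muscle Sod2 was again apart from the rest (94.8 ± 17.2 TPM). Keap1 (40.3 ± 4.64 TPM) came before Srxn1 (34.3 ± 11.2 TPM), with overlapping ranges, and all other neighbours overlapped down to Hmox1 (8.77 ± 2.77 TPM).

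The spread between libraries of a group differed from gene to gene. In control, the coefficient of variation of CPM was lowest for Sod2 (6.62%) and Keap1 (11.96%) and highest for Srxn1 (32.0%) and Osgin1 (27.3%). In COPD it was lowest for Keap1 (9.73%) and Nfe2l2 (11.4%) and highest for Gclc (47.2%) and Osgin1 (34.2%). Over all 10 libraries, the highest value was 3.59 times the lowest for Srxn1 and 1.45 times for Keap1.

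The 10 genes did not vary as a single block across libraries. Of their 45 pairs, 26 had a Pearson correlation of log2 CPM above 0 over the 10 libraries, and 0 pairs had an adjusted permutation p under 0.05 over the 45 (3 had an unadjusted permutation p under 0.05). The strongest was negative, between Keap1 and Sod2, at r = -0.805 (permutation p = 0.00538, adjusted p = 0.242) and Spearman's rho = -0.830 (permutation p = 0.00466, adjusted p = 0.210). It was -0.818 without the 2 libraries farthest from the median of Keap1 and -0.745 after each group was centred. Keap1 with Gclm (r = 0.689, permutation p = 0.0273, adjusted p = 0.429; rho = 0.782, permutation p = 0.00998, adjusted p = 0.225) fell to 0.368 without its 2 farthest libraries. Hmox1 with Txnrd1 (r = 0.696, permutation p = 0.0286, adjusted p = 0.429, and rho = 0.661, permutation p = 0.0452, adjusted p = 0.426) fell to 0.349 in the same way. Leaving out the farthest libraries also narrows the range, which tends to lower r. After each group was centred, these 2 pairs stood at 0.614 and 0.627.

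**Figure D3:**
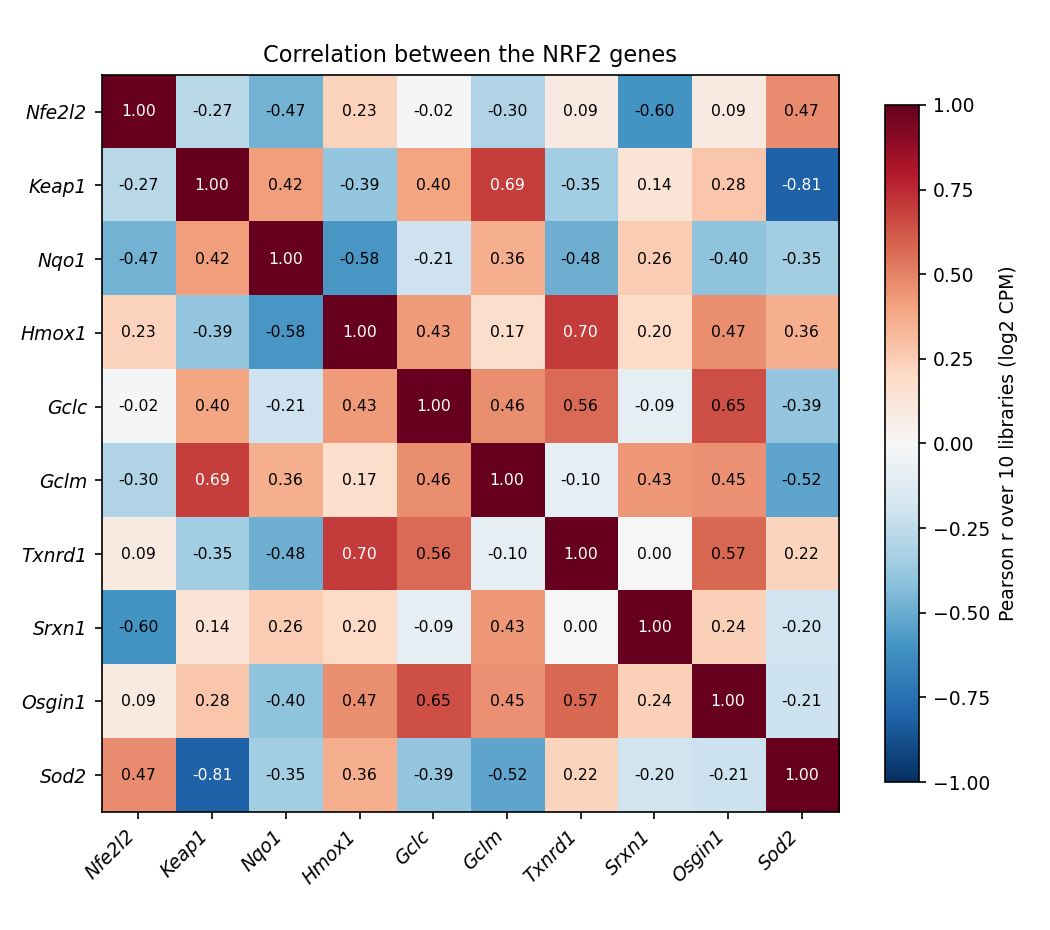
Pearson correlation of log2 CPM between each pair of the 10 genes over the 10 libraries (red above 0, blue below 0, value in each cell). The strongest pair is Keap1 with Sod2 at -0.81; Nqo1 and Hmox1, both targets of NRF2, stand at -0.58.

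The genes most like the 3 genes with the smallest p were sought among 9043 other genes with at least 5 CPM. Those named here are outside the related lists described below. With only 67 tested genes in those lists, this was likely in advance, and nothing is concluded from it. Nfe2l2 was most like Usp2, a deubiquitinating enzyme (r = 0.872), and the clock gene Per1 (r = 0.862). After each group was centred, these stood at 0.784 and 0.745, and those of Srxn1 and Sod2 below at 0.939 to 0.989. Srxn1 was most like Oga, the enzyme that removes O-linked N-acetylglucosamine (r = 0.937), and Procr, the receptor of protein C (r = 0.927). Sod2 was most like Rtn4ip1, a mitochondrial oxidoreductase gene (r = 0.990), and Uqcc1, an assembly factor of respiratory complex III (r = 0.967). These are Pearson correlations over the same 10 libraries, chosen as the highest of all candidates, and no p is given.

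The wider pathway was described with 69 further genes in 7 lists, of which 67 were tested. 0 of the 67 were called in either direction, against 0.0630% of all genes. Without adjustment, p was under 0.05 by edgeR for 10 genes with a higher value (14.9% of the 67, against 7.94% of all genes) and 3 with a lower one (4.48%, against 6.64%). The lists were chosen with earlier results of these data known, so these shares cannot show an enrichment. The median log2 fold change of the 67 genes was 0.05. The groups did not overlap for 3 of the 67, Taldo1, Blvra and Ephx1 (4.48%, against 2.84% of all genes).

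Partners and repressors of NRF2 held the largest value. Of 15 tested, edgeR gave 4 an unadjusted p under 0.05 with a higher value and 0 with a lower one (7.94% and 6.64% of all genes). Maff, a small Maf protein that pairs with NRF2 or with its competitor BACH1, was at 3.67, 4.97, 4.59, 6.21 and 4.03 CPM in control and at 33.3, 21.97, 24.7, 30.9 and 4.78 CPM in COPD. COPD replicates 1 to 4 were far above the controls and COPD replicate 5 was among them. Its log2 fold change was 2.30 ± 0.40 (edgeR adjusted p = 0.0611), and 2.56 with an adjusted p of 4.81e-05 without COPD replicate 5.

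Bach1 encodes the repressor that occupies antioxidant response elements, that of Hmox1 among them, until heme releases it. It was at 24.7, 23.4, 16.4, 18.3 and 24.5 CPM in control and at 24.4, 44.5, 52.8, 47.0 and 24.1 CPM in COPD. COPD replicates 2 to 4 were high, and COPD replicates 1 and 5 lay within the control range. Its log2 fold change was 0.84 ± 0.23 (edgeR adjusted p = 0.132; 0.0337 without COPD replicate 5).

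In the thioredoxin and peroxiredoxin list, 2 of 12 had an unadjusted p under 0.05 with a higher value, where 7.94% of all genes did. They were the glutaredoxin gene Glrx (log2 fold change 0.27 ± 0.11, edgeR adjusted p = 0.274) and the peroxiredoxin gene Prdx2 (0.26 ± 0.11, adjusted p = 0.314). Exons of Prdx2 overlap those of Junb and Rnaseh2a on the opposite strand in GRCm38, so its value is uncertain if reads of both strands were counted. In the glutathione list, 1 of 9 tested had such a p, with a higher value, Oplah, the 5-oxoprolinase of the glutathione cycle (0.61 ± 0.16, adjusted p = 0.128), whose exons overlap those of Exosc4 in the same way. Ggt5, a gamma-glutamyltransferase, had the next smallest p (0.34 ± 0.20, adjusted p = 0.474; 0.53 without control replicate 3, adjusted p = 0.219).

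Genes that supply NADPH, the reducing agent of the thioredoxin and glutathione systems, went both ways. Idh2, the mitochondrial isocitrate dehydrogenase that makes NADPH beside SOD2, was at 235, 196, 169, 227 and 255 CPM in control and at 190, 72.5, 129, 101 and 130 CPM in COPD. Only COPD replicate 1 reached the control range. Its log2 fold change was -0.80 ± 0.22 (edgeR adjusted p = 0.132), while Taldo1, of the pentose phosphate pathway, was at 0.28 ± 0.09 (adjusted p = 0.203).

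Nnt, which couples the mitochondrial proton gradient to NADPH, is named because of its values. It was at 26.1, 13.7 and 15.4 CPM in the first 3 control replicates, and COPD replicate 5 had 12 CPM. In control replicates 4 and 5 it was at 114 and 136 CPM, and in COPD replicates 1 to 4 at 89.1, 54.0, 64.0 and 82.8 CPM. The libraries thus fell into a low and a high set, each with libraries of both groups but not evenly. The low set held control replicates 1 to 3 and, of the COPD group, only replicate 5, which also scored within the controls on the leading axis. This split and the group difference cannot be fully told apart. C57BL/6J mice are known to carry a deletion within Nnt that C57BL/6N mice lack, and the labels say only C57BL/6. Whether substrain differed between libraries was not tested, nor was its part in the values of the 10 genes.

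**Figure D4:**
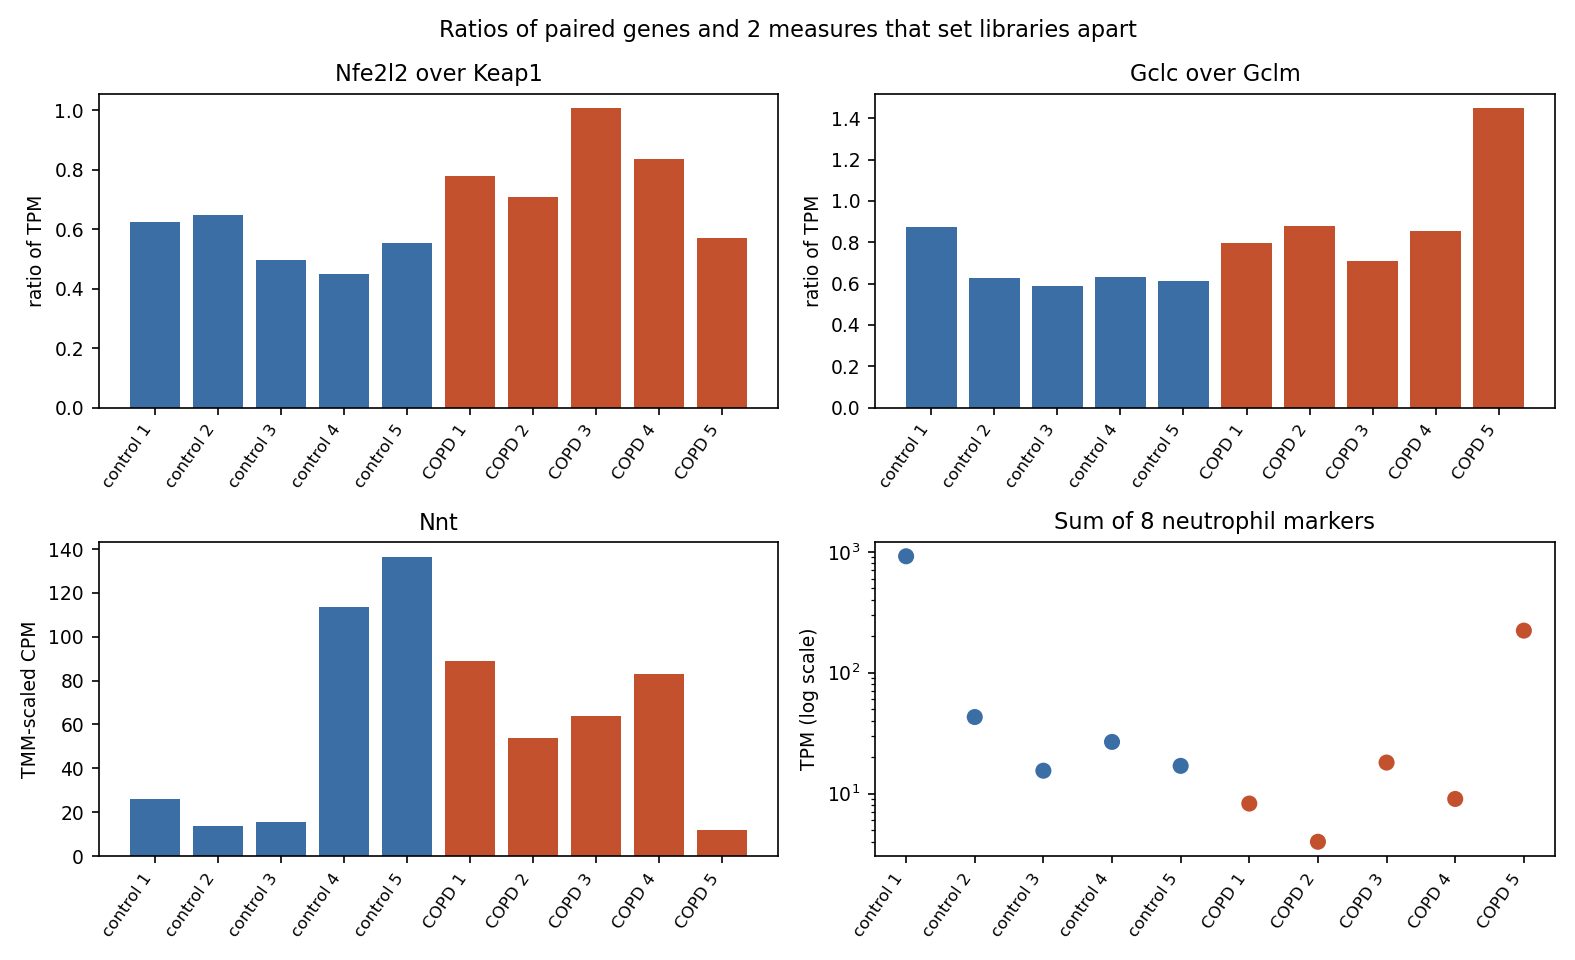
Ratio of Nfe2l2 to Keap1 and of Gclc to Gclm (TPM), CPM of Nnt, and summed TPM of 8 neutrophil markers (log axis) in each library, control in blue and COPD in red. COPD replicate 5 stands with the controls for the first ratio (0.571), highest for the second (1.45) and lowest for Nnt (12 CPM), and control replicate 1 is highest for the neutrophil markers (918 TPM).

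In the heme and iron list, 2 of 10 had such a p with a higher value, against 7.94% of all genes. Tfrc, the transferrin receptor that brings iron into cells, was at 75.3, 59.1, 52.4, 55.5 and 42.8 CPM in control and at 72.8, 123, 87.6, 219 and 132 CPM in COPD. COPD replicate 4 was the highest, and only COPD replicate 1 lay within the control range. The log2 fold change was 1.16 ± 0.26 (edgeR adjusted p = 0.0968). Blvra, which turns the biliverdin made by heme oxygenase into bilirubin, was at 0.25 ± 0.10 (adjusted p = 0.299).

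Among detoxification targets, edgeR gave 2 of 10 an unadjusted p under 0.05 with a lower value and 0 with a higher one, against 6.64% and 7.94% of all genes. Ephx1, the microsomal epoxide hydrolase, was at 34.8, 43.7, 43.3, 36.6 and 30.9 CPM in control and at 28.4, 15.5, 19.3, 22.9 and 26.4 CPM in COPD. All COPD libraries lay below all controls. The log2 fold change was -0.75 ± 0.16 (edgeR adjusted p = 0.0887; 0.0331 without COPD replicate 5). Abcc1, an exporter of glutathione conjugates, was at -0.44 ± 0.19 (adjusted p = 0.316; -0.23 over the libraries with Y-linked transcripts).

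Of the 3 other genes of superoxide and peroxide removal, 0 had an unadjusted p under 0.05 by edgeR. Sod1, the cytosolic superoxide dismutase, had a log2 fold change of -0.32 ± 0.20 (adjusted p = 0.504), which was -0.06 without control replicate 4, where Sod1 was at 329 CPM. The catalase gene Cat had one of 0.18 ± 0.19 (adjusted p = 0.713), which was -0.05 without COPD replicate 4, 0.28 without COPD replicate 5 and -0.07 with limma on log2(TPM + 1). The shares of the 67 genes that follow carry the limit that the lists were chosen with earlier results known. By DESeq2, 6 of the 67 genes passed the adjusted threshold (8.96%, against 3.19% of all genes). They were Maff, Bach1, Oplah, Idh2, Tfrc and Ephx1 (DESeq2 adjusted p from 1.19e-06 to 0.0237). Without COPD replicate 5, edgeR called 5 of the 67 (7.46%, against 3.21%), Maff, Bach1, Oplah, Ephx1 and the small Maf gene Mafk. The libraries with Y-linked transcripts hold only COPD replicates 2 and 3 of the COPD group. Over these libraries edgeR called 6 of the 67 (8.96%, against 3.70%), Maff, Bach1 and Tfrc as higher and Ephx1, Idh2 and Idh1 as lower. Mafk and Idh1 are named because they passed there; over all 10 libraries Mafk had a log2 fold change of 0.62 (edgeR adjusted p = 0.221) and Idh1 one of 0.16 (adjusted p = 0.848), of the opposite sign.

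**Figure D5:**
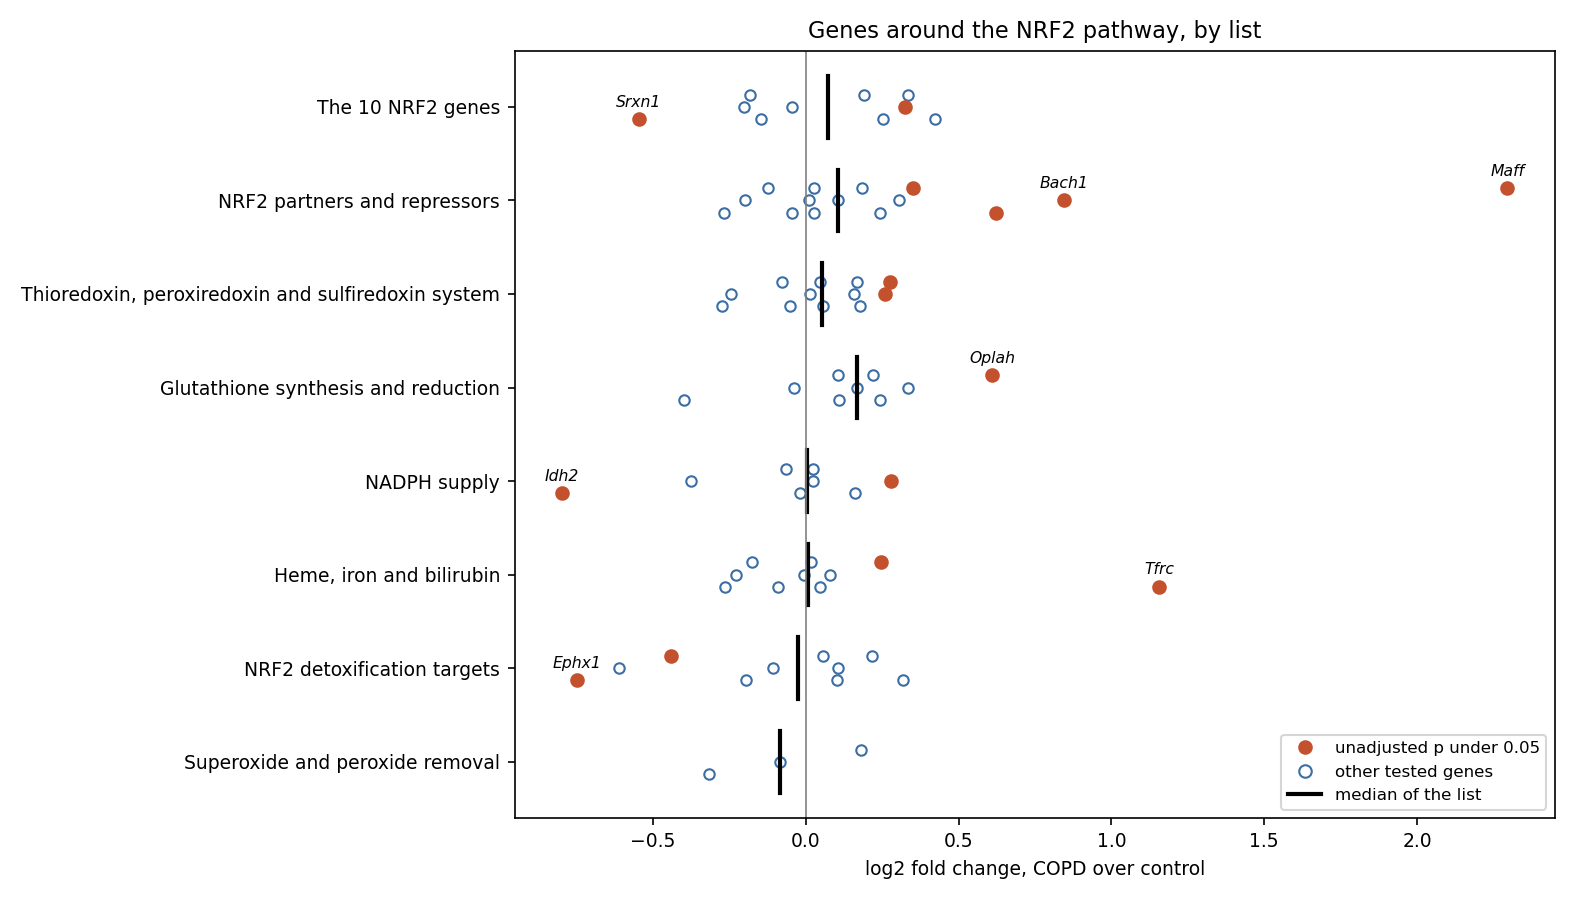
Log2 fold change (COPD over control, horizontal axis) of the 10 genes and of the 67 tested genes of 7 related lists. Each point is a gene, filled where the unadjusted p by edgeR was under 0.05, and the bar is the list's median, which lies between -0.08 and 0.17; Maff at 2.30 and Tfrc at 1.16 stand to the right and Idh2 at -0.80 and Ephx1 at -0.75 to the left.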

How the data were processed

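Expected counts and TPM per gene are the values as the authors deposited them, in 2 tables. The submitters' processing notes list the build mm9 with RSEM 1.2.12, DESeq2 1.4.5, Bowtie2 2.2.5 and HISAT2 2.0.4, without their roles, and whether counting used strand is not stated there. Expected counts, of which 30.7% were not whole, were rounded. Genes were filtered with filterByExpr, scaled by TMM and tested with edgeR 4.0.16 (quasi-likelihood, Benjamini-Hochberg over all 12697 genes, threshold 0.05); the SE is the fold change over the square root of F. TPM was used for levels between genes, for marker sums and, with limma 3.58.1 and pseudocounts of 1 and 0.1, as an alternative. Other alternatives were DESeq2 1.42.0, other scaling and filters, voom weights, a replicate block, Y-linked transcripts and leaving out each library. Correlations used 100000 permutations. The edgeR fit was tested on simulated data. Named from each list were genes past the threshold and otherwise the 2 with the smallest p. Counting error is largest for Hmox1, with 58 to 158 counts per library. Every pair of libraries differed beyond sampling noise (lowest chi-square per degree of freedom 17.7). The genes and lists were chosen with earlier results of these data known. R was version 4.3.3.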

Additional observations from a re-analysis of the deposited data

Results flagged for a closer look

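Sod1 lay at 329 CPM in control replicate 4, against 151 to 177 CPM in the other 4 controls, a gap of 0.855 of the whole range of the group, where 0.71 is the limit for 5 samples. It was the single such value among 50 groups examined, and chance alone marks about 1 in 20 groups.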

How the results depend on the processing

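The count of 0 of 10 NRF2 genes past the threshold was the same under all 22 alternatives, and 214 of the 220 fold changes of single genes kept their sign. The 6 others were Txnrd1 with limma on log2(TPM + 1), with and without a filter (-0.0095 in each), and on log2(TPM + 0.1) (-0.0102), and Osgin1 without control replicates 1 and 2 and COPD replicate 1 (0.0344, 0.0536 and 0.1351). Leaving out 1 library, Osgin1 ran from -0.1939 to 0.1351. Cat was at -0.0737 with log2(TPM + 1), with and without a filter, at -0.077 with log2(TPM + 0.1), and, leaving out 1 library, ran from -0.0546 (without COPD replicate 4) to 0.2824 (without COPD replicate 5). The count of all genes called, 8 (7 higher, 1 lower), moved more: 405 with DESeq2, 17 without a filter on low counts, 97 with limma on log2(TPM + 1) (11 higher, 86 lower), 63 with log2(TPM + 0.1) (8 and 55), 2 with log2(TPM + 1) and no filter, 137 with voom weights, 216 with a term for Y-linked transcripts and 488 over the libraries that had them. Upper-quartile scaling called 10 (7 and 3) and library size alone 6 (2 and 4). Leaving out 1 library gave 0 (COPD replicate 2; 1510 at an unadjusted p under 0.05 by edgeR) to 410 (COPD replicate 5). Libraries of the same number did not deviate together (correlations -0.140 to 0.041), and the labels do not say whether the number marks a pairing. With a replicate block edgeR called 7 genes and 0 of the 10. The cause of these moves was not tested. Depth limits Hmox1 most.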

Other observations

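Wdfy1, a gene outside the lists and named because of its values, parted the libraries in the same way as Nnt. It was at 9.11 to 13.7 CPM in control replicates 1 to 3 and COPD replicate 5, and at 16.9 to 20.2 CPM in control replicates 4 and 5 and COPD replicates 1 to 4.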
